A study of Mus with 8 samples.

Results

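TGF-beta and BMP pathway genes were followed in 3T3-L1 cells, a mouse preadipocyte line, before and after hormonal induction of adipogenesis and with or without down-regulation of the homeodomain factor Prep1. The list held 46 genes, chosen by symbol: ligands, receptors, secreted antagonists, Smads, Id genes and latent TGF-beta binding proteins. All 46 were among the 24013 genes of the deposited count table. Of these, 40 had enough counts to be tested, among 13339 genes tested in all. The other 6, Bmp2, Bmp4, Bmp7, Gdf5, Gdf6 and Fstl3, never exceeded 11 counts in a library and are not discussed as changed or unchanged.

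Ligands of the TGF-beta superfamily bind pairs of type I and type II serine/threonine kinase receptors, which phosphorylate receptor-regulated Smads. TGF-beta and activin signal mainly through Smad2 and Smad3, and BMPs through Smad1, Smad5 and Smad9, all of them together with Smad4. In preadipocytes, TGF-beta is known as an inhibitor of adipogenesis, whereas BMP2 and BMP4 can commit mesenchymal cells to the adipocyte lineage.

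C cells carried a scrambled shRNA and P cells an shRNA against Prep1, both delivered by lentivirus and selected in puromycin, so that P cells stand for a single shRNA sequence. Uninduced cells were sampled at day −2 in medium with BCS, and induced cells at day 1, after the change to medium with FBS, dexamethasone, 3-isobutyl-1-methylxanthine and insulin. The 4 conditions had 2 biological replicas each, which makes 8 Ion Torrent libraries. Between day −2 and day 1 the hormones, the serum and the time in culture changed together and cannot be told apart. Prep1 itself, listed as Pknox1, had 28.1 and 26.5 CPM (counts scaled to library size) in uninduced C cells and 17.3 and 18.3 in uninduced P cells, and 38.1 and 36.5 against 23.6 and 23.8 at day 1. Every P library thus lay below every C library of its day, with log2 ratios of −0.62 (SE 0.14, adjusted p = 0.0558, edgeR) at day −2 and −0.65 (SE 0.14, adjusted p = 0.0575, edgeR) at day 1, short of a change in ratio of 2.

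Total counts ran from 20428816 to 27614353 per library. At these depths 3 counts, taken as the detection floor (counting error only), equal 0.107 to 0.160 CPM. The replicas of uninduced P cells stood apart from each other, and replica 1 had the lowest TMM scaling factor, 0.837, of a range up to 1.08. Between the replicas of that condition 14 of the 40 members differed over 2-fold, against 1 in uninduced C cells, 1 in induced C cells and 2 in induced P cells. Among all genes tested that had counts in both replicas, 28.3% differed that much in uninduced P cells, and 3.85%, 5.93% and 5.66% in the other conditions. For this reason calls that use uninduced P cells are also given with their log2 ratio without replica 1 of that condition ("without replica 1"). No call of a gene described here was lost without its replica 2. In that fit more of all genes tested were called in every test that uses uninduced P cells, so keeping a call there is a weak check. A fit without a library leaves its condition with a lone replica, which is then assumed to vary like the other conditions. All 7 preadipocyte and fibroblast markers were above the floor in each condition, with a summed level of 14672 to 49875 CPM in uninduced P cells and 11478 to 18786 CPM in the other conditions, while of 3 myoblast markers Myod1 and Myog never exceeded 0.0855 CPM and Des ranged from 0.513 to 6.60 CPM, lower in each induced than in each uninduced library. The summed level of 6 adipocyte markers was 80.5 to 80.8 CPM in uninduced C cells, 236 to 246 in uninduced P cells, 186 in both libraries of induced C cells, and 558 to 600.04 in induced P cells. Most of each sum came from Lpl, and the markers did not all move with it. Pparg had 12.1 and 21.2 CPM in uninduced P cells against 19.2 and 19.5 in uninduced C cells. Fabp4 fell on induction of C cells, from 2.07 and 2.35 CPM to 0.789 and 1.39. Adipoq and Plin1 had at most 3 counts in any C library. The preadipocyte and the adipocyte sum both moved with conditions compared here, and their part in the results was not tested. In such bulk samples, fewer cells of a type and less RNA per cell cannot be told apart.

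**Figure D1:**
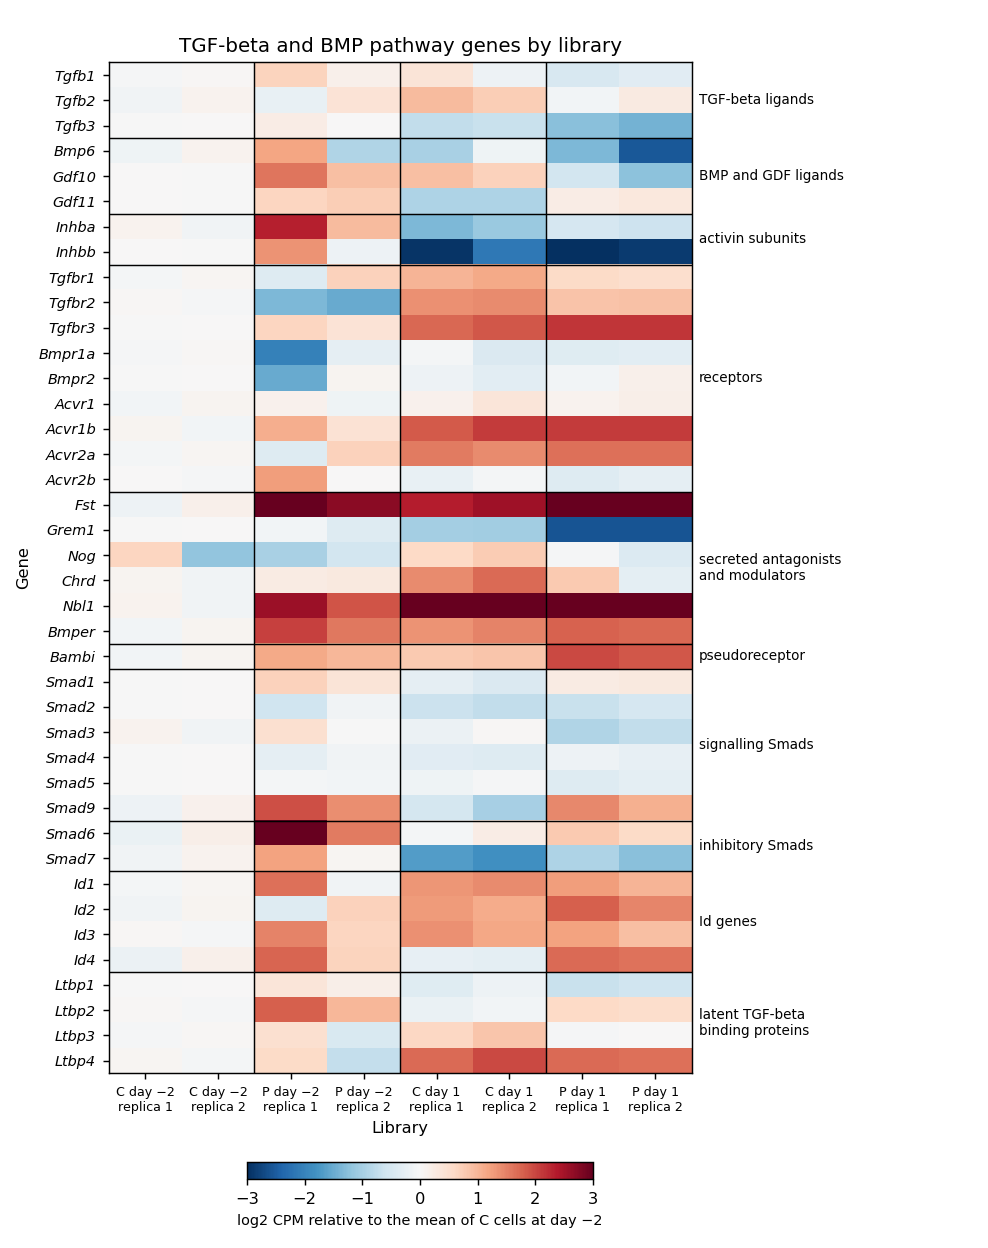
Heatmap of the 40 tested genes (rows, grouped by role) in the 8 libraries (columns). Colour gives log2 CPM relative to the mean of uninduced C cells, after adding 0.1 CPM, and is limited to 3 on either side; Fst, Nbl1 and Smad6 are red in P cells before induction, whereas Tgfbr2 is blue there and red at day 1.

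Calls required an adjusted p under 0.1 together with a ratio over 2 or under 0.5. Induction of C cells called 17 of the 40 genes (42.5%), 13 higher and 4 lower, while 20.4% of all genes tested were called, 10.7% higher and 9.68% lower. The genes that rose were receptors (Tgfbr1, Tgfbr2, Tgfbr3, Acvr1b, Acvr2a), secreted antagonists (Fst, Nbl1, Bmper, Chrd), Id genes (Id1, Id2, Id3) and Ltbp4, and those that fell were Inhba, Inhbb, Grem1 and Smad7. Their median log2 ratio over the 40 genes was 0.12, against −0.01 over all genes. Fewer members, and fewer of all genes tested, were called without either replica of uninduced C cells or either replica of induced C cells (edgeR).

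In P cells, induction called 15 of the 40 genes (37.5%), 7 higher and 8 lower, while 18.0% of all genes were called, 7.65% higher and 10.4% lower. Tgfbr2, Tgfbr3, Acvr1b, Acvr2a, Nbl1, Id2 and Ltbp4 rose, and Tgfb3, Gdf10, Inhba, Inhbb, Grem1, Smad3, Smad6 and Smad7 fell. The median was −0.07, against 0.02 over all genes. Without replica 1 of uninduced P cells fewer members and fewer of all genes tested were called, and without replica 2 more of both. Without either replica of induced P cells fewer of both were called. When the C libraries were left out, 9 members and 1213 of all genes were called. The calls lost in that fit were those of Gdf10, Acvr2a, Smad6, Smad7, Id2 and Ltbp4. The inductions of C and P cells, which share the fit but no library, called 11 genes in the same direction and none in opposite directions. A further 6 were called in the former only and 4 in the latter only. As shares of the genes tested, calls in the same direction made up 27.5% of the 40 and 9.93% of all genes, and calls in opposite directions 0.120% of all genes. Calls in C cells only made up 15.0% and 10.4%, and calls in P cells only 10.0% and 7.98%.

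Between P and C cells before induction, 11 of the 40 genes (27.5%) were called, 10 higher and 1 lower in P cells, while 6.98% of all genes were called, 4.83% higher and 2.15% lower. Higher were Inhba, Fst, Nbl1, Bmper, Bambi, Smad9, Smad6, Id3, Id4 and Ltbp2, and lower was Tgfbr2. The median was 0.47, against 0.01 over all genes. Without replica 1 of uninduced P cells, Inhba, Id3 and Id4 were lost. Without replica 2 of uninduced P cells more members and more of all genes tested were called, and without either replica of uninduced C cells fewer of both. In a model of the 4 uninduced libraries alone Fst was the single member called, out of 81 genes called in the whole table. This comparison shares libraries with both inductions, so that their values are set side by side below and not counted together.

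At day 1, 5 of the 40 genes (12.5%) were called between P and C cells, Gdf11, Bambi, Smad9 and Id4 higher and Grem1 lower in P cells, while 4.06% of all genes were called, 1.83% higher and 2.23% lower. The median was −0.11, against 0.01 over all genes. Bambi, Smad9 and Id4 were called higher at both days, in comparisons that share no library but share the fit and its estimate of the spread. These 3 of 40 compare with 1.52% of all genes called in the same direction at both days. Without either induced C library Grem1 alone was called, and without either induced P library none was. In each of these fits fewer of all genes tested were called too. With all libraries DESeq2 called 5 members as well, and 705 of all genes against 542 in edgeR.

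**Figure D2:**
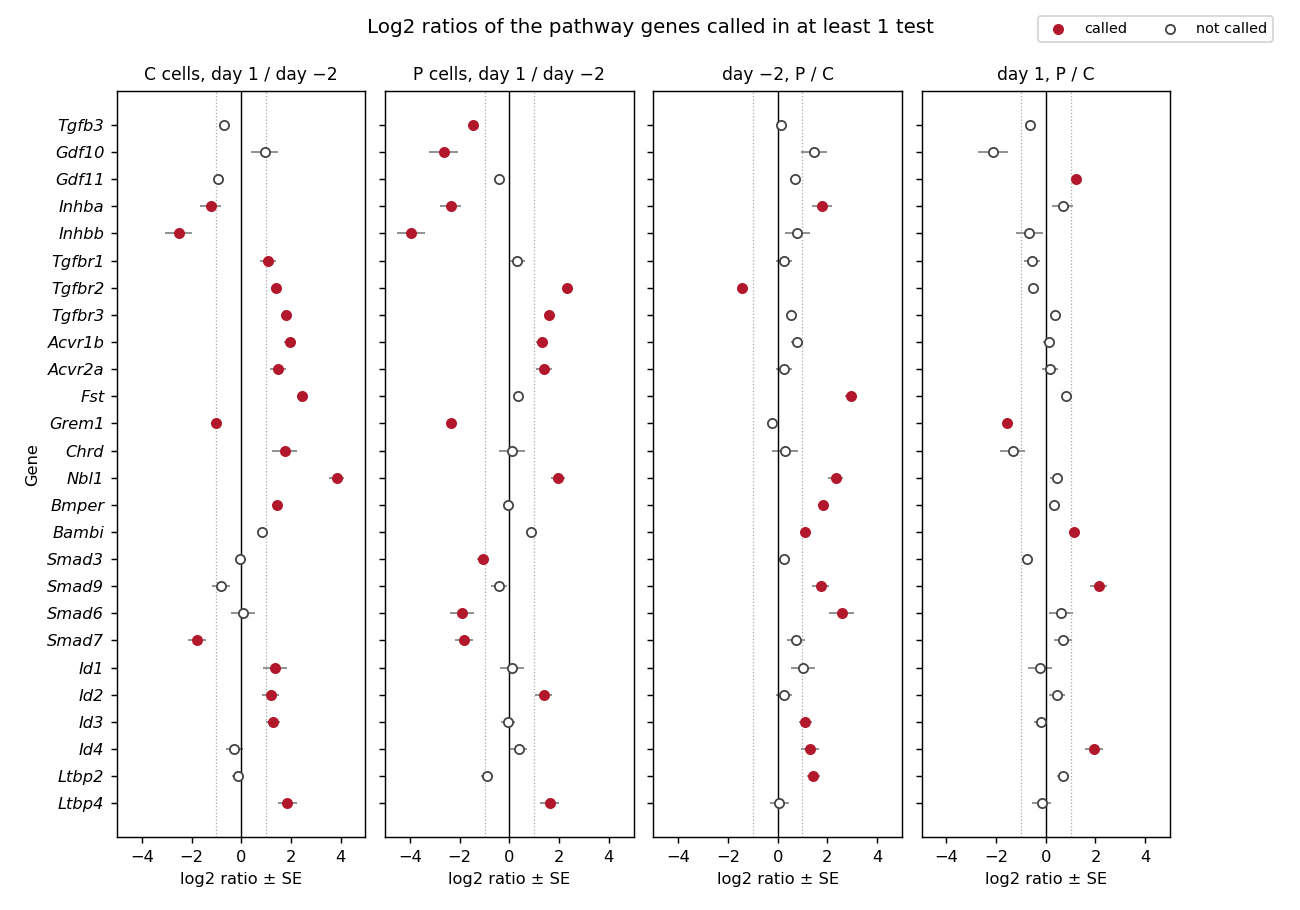
Log2 ratios (x axis) with their SE of the 26 genes called in at least 1 test (y axis), in the 4 comparisons. Filled points passed both thresholds, open points did not, and dotted lines mark a ratio of 2 and of 0.5; Bambi, Smad9 and Id4 are filled to the right in both comparisons of P with C cells.

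Whether P and C cells responded differently to induction was tested as the difference between their log2 ratios, called at an adjusted p under 0.1. Of the 40 genes, 5 were called (12.5%), against 2.37% of all genes. The response of Tgfbr2 was higher in P cells (0.435% of all genes) and that of Fst, Nbl1, Grem1 and Bmper lower (1.93% of all genes), so that 4 of the 6 secreted antagonists and modulators tested were among them. With DESeq2's size factors in place of TMM, 4 were called, none higher and 4 lower. DESeq2 itself called 10. Without replica 1 or replica 2 of uninduced P cells more members were called, but so were more of all genes tested, and the cause was not tested. When any of the other 6 libraries was left out, none of the 5 was called, except Fst without replica 1 of induced C cells. In these fits fewer of all genes tested were called as well.

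Secreted antagonists and modulators are described first. Follistatin, encoded by Fst, binds and neutralizes activins. Fst had 9.01 and 11.2 CPM in uninduced C, 87.7 and 66.9 in uninduced P, 51.7 and 59.1 in induced C and 102 and 94.6 in induced P. The C libraries at day −2 were the lowest by far, and both P libraries at day −2 lay above both C libraries at day 1. Before induction P cells exceeded C cells by a log2 ratio of 2.94 (SE 0.21, adjusted p = 0.00154, edgeR), or 2.74 without replica 1. Induction of C cells raised Fst by a log2 ratio of 2.46 (SE 0.20, adjusted p = 3.9e-04, edgeR). In P cells its ratio at day 1 to day −2 was 0.35 (SE 0.19, adjusted p = 0.228, edgeR), and after induction P exceeded C cells by a log2 ratio of 0.83 (SE 0.19, adjusted p = 0.0725, edgeR), which is less than 2-fold. The difference between the inductions was −2.11 (SE 0.28, adjusted p = 0.0212, edgeR), or −1.94 without replica 1.

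Bmper encodes a secreted BMP-binding protein of the chordin type, which can block or promote BMP signalling. It had 15.7 and 17.8 CPM in uninduced C, 69.4 and 49.98 in uninduced P, 42.9 and 47.3 in induced C and 57.6 and 55.8 in induced P. All libraries of the other 3 conditions lay above both C libraries at day −2. On the log2 scale the P to C ratio before induction was 1.83 (SE 0.20, adjusted p = 0.00435, edgeR), or 1.59 without replica 1. Induction raised Bmper in C cells by a log2 ratio of 1.43 (SE 0.20, adjusted p = 0.00288, edgeR), whereas in P cells the replicas of the 2 days overlapped and the ratio was −0.07 (SE 0.19, adjusted p = 0.802, edgeR). The inductions differed by a log2 value of −1.50 (SE 0.27, adjusted p = 0.0626, edgeR), or −1.28 without replica 1.

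Nbl1, also known as DAN, is a secreted BMP antagonist. Nbl1 had 1.39 and 1.20 CPM in uninduced C, 8.15 and 5.07 in uninduced P, 16.8 and 20.8 in induced C and 25.4 and 25.6 in induced P. The order of its levels was uninduced C, uninduced P, induced C and induced P cells, and no libraries of different conditions overlapped. Before induction P cells exceeded C cells by a log2 ratio of 2.34 (SE 0.29, adjusted p = 0.00701, edgeR), or 1.97 without replica 1, a call lost without replica 2 of uninduced C cells. Both inductions raised it, by a log2 ratio of 3.85 (SE 0.30, adjusted p = 3.0e-04, edgeR) in C cells and 1.96 (SE 0.26, adjusted p = 0.00354, edgeR) in P cells, and they differed by a log2 value of −1.90 (SE 0.38, adjusted p = 0.0845, edgeR). Without replica 1 the ratio in P cells was 2.32 and the difference −1.55. At day 1 the ratio of P to C cells was 0.44 (SE 0.25, adjusted p = 0.485, edgeR).

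Gremlin 1, encoded by Grem1, binds and blocks BMP2, BMP4 and BMP7. Grem1 had 81.6 and 84.0 CPM in uninduced C, 77.9 and 63.7 in uninduced P, 41.0 and 40.2 in induced C and 13.6 and 13.8 in induced P. Unlike the 3 genes above, it was highest before induction and lowest in induced P cells. The ratio of P to C cells before induction was −0.23 (SE 0.15, adjusted p = 0.358, edgeR). Induction lowered Grem1 in C cells, with a log2 ratio of −1.03 (SE 0.15, adjusted p = 0.0037, edgeR) and in P cells, with −2.37 (SE 0.16, adjusted p = 2.9e-04, edgeR), or −2.23 without replica 1 of uninduced P cells. The call in C cells was lost without replica 2 of induced C cells, where the log2 ratio was −0.9996. The inductions differed by a log2 value of −1.34 (SE 0.21, adjusted p = 0.0414, edgeR), or −1.22 without replica 1, and after induction P cells lay below C cells, with a log2 ratio of −1.57 (SE 0.15, adjusted p = 0.00478, edgeR), a call lost without either replica of induced P cells.

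Chordin, encoded by Chrd, is a BMP antagonist that was rare in these cells, with at most 45 counts in a library. Chrd had 0.518 and 0.443 CPM in uninduced C, 0.586 and 0.606 in uninduced P, 1.46 and 1.79 in induced C and 0.897 and 0.373 in induced P. Induced C cells were the highest condition. Induction raised it in C cells by a log2 ratio of 1.75 (SE 0.50, adjusted p = 0.0441, edgeR), a call lost without either replica of uninduced C cells or either replica of induced C cells, and its ratio in P cells was 0.10 (SE 0.52, adjusted p = 0.906, edgeR). The test of the difference between the inductions gave −1.65 (SE 0.72, adjusted p = 0.353, edgeR). Nog, which encodes the BMP antagonist noggin, had between 0.310 and 1.47 CPM and was not called in any test.

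Bambi encodes a pseudoreceptor that resembles type I receptors but lacks the kinase domain and dampens their signalling. It had 2.59 and 2.92 CPM in uninduced C, 6.18 and 5.60 in uninduced P, 4.81 and 5.02 in induced C and 11.2 and 10.4 in induced P. P cells lay above C cells at each day, with a log2 ratio of 1.09 (SE 0.20, adjusted p = 0.0275, edgeR) at day −2, or 1.03 without replica 1, and 1.13 (SE 0.19, adjusted p = 0.0284, edgeR) at day 1. The former call was lost without either replica of uninduced C cells and with scaling by library totals, the latter without either replica of induced C cells or either replica of induced P cells. The 2 inductions had ratios of 0.83 in C and 0.87 in P cells (adjusted p = 0.0231 and 0.0214, edgeR), both below 2-fold.

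**Figure D3:**
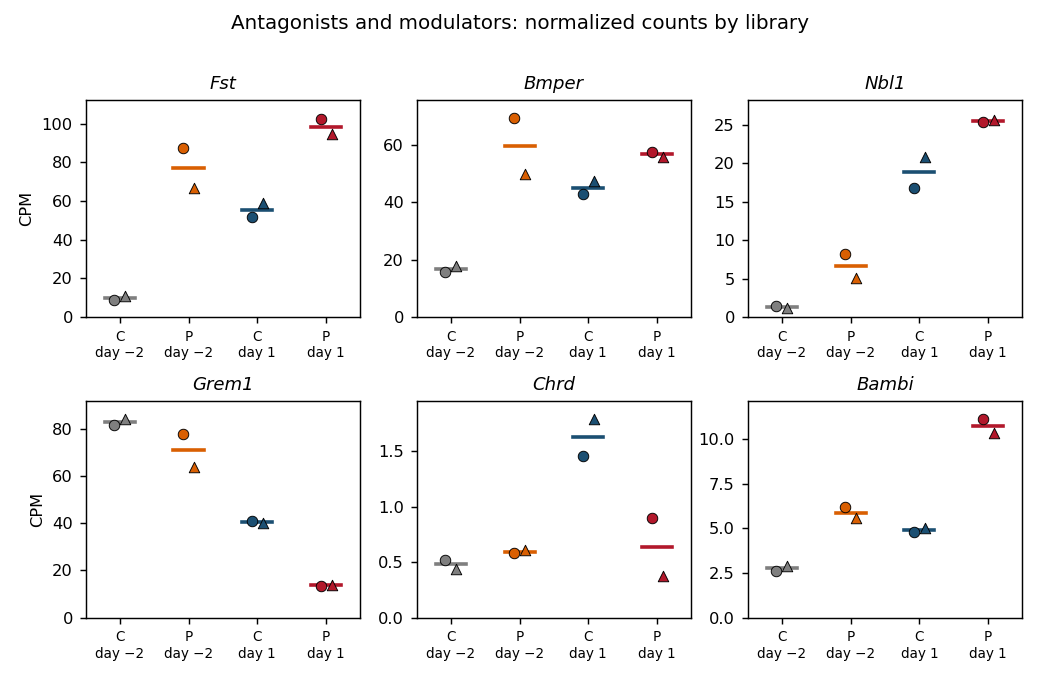
Normalized counts (CPM, y axis, starting at 0) of 5 secreted antagonists and modulators and of Bambi in the 4 conditions. Circles are replica 1, triangles replica 2 and bars their mean; Fst and Bmper are already high in uninduced P cells, while Grem1 is lowest in induced P cells.

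Of 9 receptors, 5 rose on induction of C cells and 4 on induction of P cells, while 10.7% and 7.65% of all genes rose. Tgfbr2 encodes the type II receptor that binds TGF-beta ligands. Tgfbr2 had 154 and 148 CPM in uninduced C, 59.0 and 53.0 in uninduced P, 392 and 406 in induced C and 273 and 278 in induced P. Uninduced P cells were the lowest condition and induced C cells the highest, with no overlap between conditions. The ratio of P to C cells before induction was −1.43 (SE 0.13, adjusted p = 0.00276, edgeR), or −1.50 without replica 1, and among the 40 genes no other was called lower in P cells at that day. Induction raised Tgfbr2 by a log2 ratio of 1.40 (SE 0.13, adjusted p = 6.9e-04, edgeR) in C cells and by 2.30 (SE 0.14, adjusted p = 1.8e-04, edgeR) in P cells, or 2.37 without replica 1. The inductions differed by a log2 value of 0.90 (SE 0.18, adjusted p = 0.09, edgeR), or 0.95 without replica 1, which is a larger response in P cells, and this call was lost with DESeq2's size factors and with no filter on low counts. At day 1 the ratio of P to C cells was −0.53 (SE 0.13, adjusted p = 0.0856, edgeR), within 2-fold.

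Tgfbr1, the type I receptor for TGF-beta, had 28.3 and 30.6 CPM in uninduced C, 22.4 and 47.4 in uninduced P, 60.2 and 65.3 in induced C and 44.0 and 42.1 in induced P. The replicas of uninduced P cells lay on either side of the C cells. Induction raised it in C cells by a log2 ratio of 1.09 (SE 0.32, adjusted p = 0.0469, edgeR), a call lost without either replica of uninduced C cells or either replica of induced C cells and with scaling by library totals. In P cells the ratio was 0.30 (SE 0.32, adjusted p = 0.524, edgeR), and the difference between the inductions was −0.79 (SE 0.45, adjusted p = 0.417, edgeR). Tgfbr3 encodes betaglycan, a co-receptor that presents TGF-beta2 and binds inhibin. It had 110.4 and 111 CPM in uninduced C, 174 and 148 in uninduced P, 363 and 405 in induced C and 493 and 487 in induced P. All day 1 libraries exceeded all day −2 libraries. Induction raised Tgfbr3 by a log2 ratio of 1.79 (SE 0.15, adjusted p = 3.9e-04, edgeR) in C cells and 1.61 (SE 0.15, adjusted p = 8.8e-04, edgeR) in P cells, the latter 1.72 without replica 1, and P and C cells differed by 0.54 at day −2 and 0.35 at day 1 without passing the ratio threshold.

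The activin receptors Acvr1b, of type I, and Acvr2a, of type II, rose in both inductions. Acvr1b had 10.5 and 9.26 CPM in uninduced C, 21.0 and 13.3 in uninduced P, 35.4 and 42.4 in induced C and 42.8 and 42.7 in induced P. Its day 1 libraries were all above its day −2 libraries, and the log2 ratios were 1.98 (SE 0.25, adjusted p = 0.00196, edgeR) in C cells and 1.32 (SE 0.24, adjusted p = 0.0107, edgeR) in P cells, the latter 1.67 without replica 1. Acvr2a had 25.5 and 27.3 CPM in uninduced C, 20.1 and 42.4 in uninduced P, 78.5 and 70.6 in induced C and 83.8 and 82.6 in induced P. Here too every day 1 library was higher than every day −2 library, although the replicas of uninduced P cells were over 2-fold apart. Its ratios were 1.50 (SE 0.32, adjusted p = 0.016, edgeR) in C cells and 1.41 (SE 0.32, adjusted p = 0.0241, edgeR) in P cells, the latter 0.96 and below 2-fold without replica 1 of uninduced P cells. The call in C cells was lost without either replica of uninduced C cells, and that in P cells without replica 1 of uninduced P cells or either replica of induced P cells.

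The other receptors were not called in any test. Bmpr1a, a type I receptor for BMPs, had 105 and 110.0 CPM in uninduced C, 26.3 and 89.0 in uninduced P, 103 and 79.7 in induced C and 84.2 and 85.9 in induced P. Bmpr2, the type II receptor for BMPs, had 57.6 and 58.8 CPM in uninduced C, 20.2 and 61.7 in uninduced P, 52.6 and 46.3 in induced C and 55.2 and 64.3 in induced P. In both genes replica 1 of uninduced P cells was the lowest of all libraries and replica 2 lay closer to the C cells of that day. Acvr1 ranged from 44.6 to 62.5 CPM and Acvr2b from 2.05 to 6.60 CPM over the 8 libraries.

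**Figure D4:**
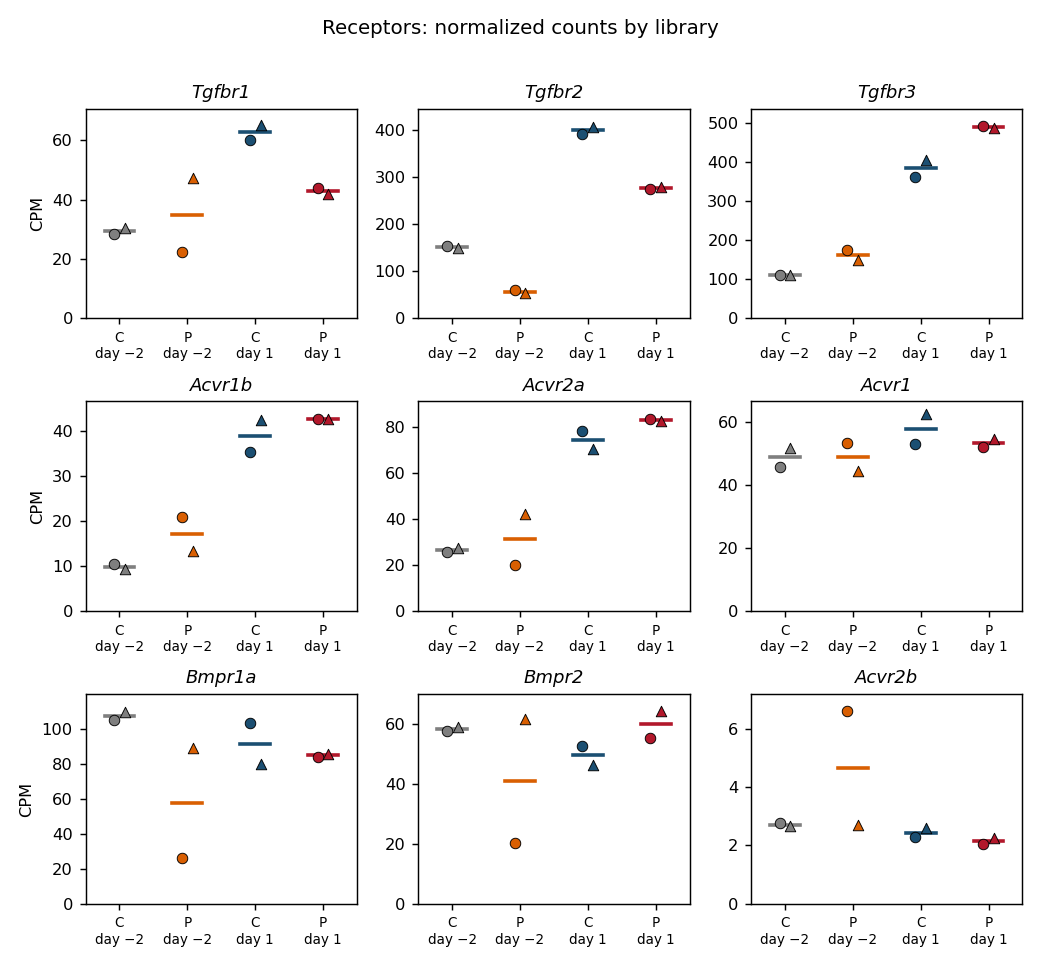
Normalized counts (CPM, y axis, starting at 0) of the 9 receptors in the 4 conditions. Circles are replica 1, triangles replica 2 and bars their mean; Tgfbr2 is lowest in uninduced P cells, and the replicas of Bmpr1a and Bmpr2 are far apart in that condition.

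Among the ligands, Inhba and Inhbb fell in both inductions. They encode the beta A and beta B chains that form activins, or inhibins with an alpha chain. Inhba had 28.0 and 24.1 CPM in uninduced C, 131 and 50.3 in uninduced P, 10.2 and 12.0 in induced C and 18.4 and 17.0 in induced P. Uninduced P cells were the highest condition and induced C cells the lowest. Before induction P cells exceeded C cells by a log2 ratio of 1.80 (SE 0.41, adjusted p = 0.0563, edgeR), a call lost without replica 1, where the ratio was 0.95, and when any other library except replica 2 of uninduced P cells was left out. Induction lowered Inhba, with log2 ratios of −1.23 (SE 0.41, adjusted p = 0.0684, edgeR) in C cells, a call lost without either replica of uninduced C cells, either replica of induced C cells or either replica of induced P cells, and −2.35 (SE 0.42, adjusted p = 0.0101, edgeR) in P cells, or −1.51 without replica 1 of uninduced P cells. Inhbb had 31.1 and 30.4 CPM in uninduced C, 79.0 and 27.6 in uninduced P, 3.91 and 6.85 in induced C and 2.65 and 4.15 in induced P. All its day 1 libraries were below all its day −2 libraries, and replica 2 of uninduced P cells lay below the C cells while replica 1 lay above them. The ratios on induction were −2.52 (SE 0.53, adjusted p = 0.0155, edgeR) in C cells and −3.97 (SE 0.57, adjusted p = 0.00454, edgeR) in P cells, the latter −3.04 without replica 1. The call in C cells was lost without replica 1 of induced C cells.

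Of the TGF-beta ligands, Tgfb3 had 32.4 and 32.7 CPM in uninduced C, 37.9 and 32.7 in uninduced P, 19.6 and 20.3 in induced C and 13.6 and 12.2 in induced P. It was lower at day 1 in both kinds of cell. Induction lowered it in P cells, with a log2 ratio of −1.45 (SE 0.16, adjusted p = 0.00154, edgeR), or −1.35 without replica 1, and in C cells the ratio was −0.70 (SE 0.16, adjusted p = 0.0175, edgeR), within 2-fold. The difference between the inductions of Tgfb3 was −0.75 (SE 0.22, adjusted p = 0.204, edgeR). Tgfb1, whose range was 13.4 to 29.8 CPM, and Tgfb2, whose range was 4.21 to 9.71 CPM, were not called. At day 1 all 3 TGF-beta ligands had log2 ratios below 0 in P against C cells, −0.57 for Tgfb1, −0.75 for Tgfb2 and −0.63 for Tgfb3, none of them called (adjusted p = 0.333, 0.243 and 0.09, edgeR).

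BMP and GDF ligands were scarce, and 3 of 8 were tested. Gdf11, a ligand close to myostatin, had 11.1 and 10.9 CPM in uninduced C, 17.4 and 18.6 in uninduced P, 5.72 and 5.73 in induced C and 12.8 and 13.8 in induced P. P cells lay above C cells at each day, and induction went with lower levels in both. At day 1 P cells exceeded C cells by a log2 ratio of 1.21 (SE 0.16, adjusted p = 0.0134, edgeR), and at day −2 the ratio was 0.71 (SE 0.16, adjusted p = 0.054, edgeR), within 2-fold. The call at day 1 was lost without either replica of induced C cells or either replica of induced P cells. Gdf10, known as BMP3b, had at most 24 counts in a library, with 0.359 and 0.354 CPM in uninduced C, 1.28 and 0.749 in uninduced P, 0.750 and 0.637 in induced C and 0.214 and 0.0934 in induced P. Its level in P cells fell on induction, with a log2 ratio of −2.65 (SE 0.59, adjusted p = 0.0223, edgeR), or −2.24 without replica 1 of uninduced P cells, and the call was lost without replica 2 of induced P cells and when the C libraries were left out. Bmp6 had at most 23 counts in a library and was not called.

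Of the 6 signalling Smads, Smad9 and Smad3 were called in at least 1 test and 4 in none. Smad9, also known as Smad8, is regulated by BMP receptors. It had 1.35 and 1.68 CPM in uninduced C, 6.07 and 4.14 in uninduced P, 1.03 and 0.717 in induced C and 4.32 and 3.31 in induced P. P cells lay above C cells at each day without overlap. The ratios were 1.74 (SE 0.34, adjusted p = 0.0354, edgeR) at day −2, or 1.46 without replica 1, and 2.12 (SE 0.36, adjusted p = 0.0265, edgeR) at day 1. The first call was lost without either replica of uninduced C cells, and the second without either replica of induced C cells or either replica of induced P cells. Smad3 had 78.6 and 68.6 CPM in uninduced C, 103 and 73.0 in uninduced P, 65.4 and 75.7 in induced C and 39.1 and 43.9 in induced P. Induction lowered it in P cells, with a log2 ratio of −1.08 (SE 0.20, adjusted p = 0.0124, edgeR), or −0.82, within 2-fold, without replica 1 of uninduced P cells, a call also lost without replica 1 of induced P cells and with scaling by library totals, and its ratio in C cells was −0.06 (SE 0.20, adjusted p = 0.854, edgeR). The difference between the inductions of Smad3 was −1.02 (SE 0.29, adjusted p = 0.188, edgeR). Smad1, Smad2, Smad4 and Smad5 were not called in any test, with log2 ratios in the 4 comparisons between −0.69, for Smad2 on induction of C cells, and 0.62, for Smad1 in P against C cells after induction.

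Smad6 and Smad7 are inhibitory Smads, which are induced by BMP and TGF-beta signals and block the receptors in turn. Smad6 had 9.25 and 12.1 CPM in uninduced C, 96.8 and 31.5 in uninduced P, 10.2 and 12.5 in induced C and 18.4 and 15.9 in induced P. Both P libraries at day −2 were above all others, although they lay 3.07-fold apart. Before induction P cells exceeded C cells by a log2 ratio of 2.58 (SE 0.50, adjusted p = 0.0342, edgeR), or 1.57 without replica 1, a call lost without either replica of uninduced C cells. Induction lowered Smad6 in P cells, with a log2 ratio of −1.90 (SE 0.49, adjusted p = 0.0353, edgeR), a call lost without replica 1 of uninduced P cells or either replica of induced P cells, with a ratio of −0.89 in the first of these fits. In C cells the ratio was 0.08 (SE 0.48, adjusted p = 0.921, edgeR), and the inductions differed by a log2 value of −1.99 (SE 0.68, adjusted p = 0.27, edgeR), which was not called. Smad7 had 26.7 and 30.9 CPM in uninduced C, 66.8 and 30.0 in uninduced P, 8.92 and 7.96 in induced C and 15.0 and 12.0 in induced P. It fell at day 1 in both kinds of cell, with log2 ratios of −1.77 (SE 0.37, adjusted p = 0.0147, edgeR) in C cells and −1.83 (SE 0.37, adjusted p = 0.0152, edgeR) in P cells, the latter −1.16 without replica 1 of uninduced P cells and lost without replica 2 of induced P cells. Replica 2 of uninduced P cells lay within the C replicas, and the ratio of P to C cells at that day was 0.75 (SE 0.36, adjusted p = 0.237, edgeR).

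The Id genes encode helix-loop-helix proteins without a DNA-binding domain and are direct targets of BMP-regulated Smads. On induction of C cells, Id1, Id2 and Id3 rose. Id1 had 122 and 134 CPM in uninduced C, 399.8 and 119.5 in uninduced P, 321 and 343 in induced C and 304 and 259 in induced P. All C libraries at day 1 exceeded those at day −2, by a log2 ratio of 1.37 (SE 0.49, adjusted p = 0.0813, edgeR), a call lost without either replica of uninduced C cells, either replica of induced C cells or either replica of induced P cells. Replica 1 of uninduced P cells was the highest of all libraries and replica 2 the lowest, and the ratio of P to C cells of Id1 at that day was 1.02 (SE 0.48, adjusted p = 0.237, edgeR). Id3 had 146 and 138 CPM in uninduced C, 396 and 221 in uninduced P, 366 and 319 in induced C and 328 and 264 in induced P. It rose in C cells by a log2 ratio of 1.27 (SE 0.28, adjusted p = 0.0178, edgeR), a call lost without either replica of uninduced C cells, and in P cells its ratio was −0.06 (SE 0.28, adjusted p = 0.889, edgeR). Before induction P cells exceeded C cells by a log2 ratio of 1.12 (SE 0.28, adjusted p = 0.0695, edgeR), a call lost without replica 1, where the ratio of Id3 was 0.65, with scaling by library totals, and when any other library except replica 2 of uninduced P cells was left out. The difference between the inductions was −1.33 (SE 0.39, adjusted p = 0.205, edgeR) for Id3 and −1.26 (SE 0.68, adjusted p = 0.403, edgeR) for Id1, neither of them called.

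Id2 had 26.7 and 30.3 CPM in uninduced C, 21.6 and 46.4 in uninduced P, 69.1 and 61.6 in induced C and 99.7 and 78.4 in induced P. It rose on induction in both kinds of cell, by a log2 ratio of 1.20 (SE 0.34, adjusted p = 0.0428, edgeR) in C cells and 1.39 (SE 0.34, adjusted p = 0.0318, edgeR) in P cells, the latter 0.93 and below 2-fold without replica 1 of uninduced P cells. The call in C cells was lost without either replica of uninduced C cells or either replica of induced C cells and with scaling by library totals, and that in P cells without replica 1 of uninduced P cells or either replica of induced P cells. Id4 had 4.86 and 6.16 CPM in uninduced C, 18.6 and 8.81 in uninduced P, 4.66 and 4.46 in induced C and 18.0 and 17.3 in induced P. Both P conditions lay above both C conditions without overlap, by a log2 ratio of 1.31 (SE 0.35, adjusted p = 0.0829, edgeR) at day −2 and 1.95 (SE 0.36, adjusted p = 0.0353, edgeR) at day 1. The call at day −2 was lost without replica 1, where the ratio of Id4 was 0.69, and when any other library except replica 2 of uninduced P cells was left out. That at day 1 was lost without either replica of induced C cells or either replica of induced P cells. Its responses to induction, −0.27 (SE 0.35, adjusted p = 0.615, edgeR) in C cells and 0.37 (SE 0.34, adjusted p = 0.463, edgeR) in P cells, were not called.

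**Figure D5:**
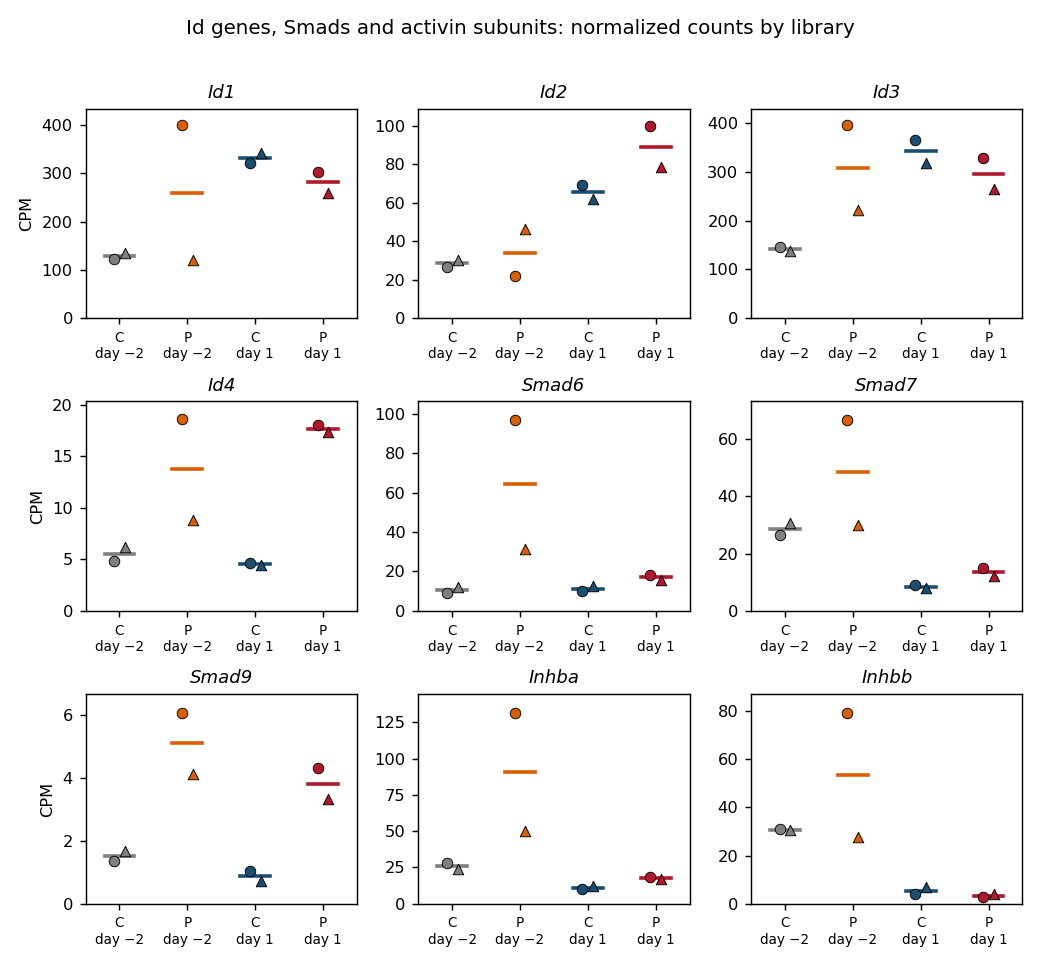
Normalized counts (CPM, y axis, starting at 0) of the 4 Id genes, of Smad6, Smad7 and Smad9 and of the activin subunit genes in the 4 conditions. Circles are replica 1, triangles replica 2 and bars their mean; the replicas of uninduced P cells lie far apart for most of these genes, while Id4 and Smad9 are higher in P than in C cells at each day.

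Latent TGF-beta binding proteins hold TGF-beta in the matrix as a latent complex. Ltbp2, a member of the family that does not bind latent TGF-beta itself, had 83.4 and 80.2 CPM in uninduced C, 282 and 164 in uninduced P, 70.8 and 77.7 in induced C and 123 and 117 in induced P. P cells lay above C cells at each day. The ratio at day −2 was 1.44 (SE 0.25, adjusted p = 0.0232, edgeR), or 1.01 without replica 1, a call lost without either replica of uninduced C cells, and at day 1 it was 0.69 (SE 0.25, adjusted p = 0.22, edgeR), which was not called. Ltbp4 had 14.9 and 13.7 CPM in uninduced C, 21.4 and 8.74 in uninduced P, 46.8 and 57.1 in induced C and 47.0 and 45.1 in induced P. Every day 1 library was above every day −2 library, and induction raised it by a log2 ratio of 1.86 (SE 0.38, adjusted p = 0.014, edgeR) in C cells, a call lost without replica 2 of uninduced C cells. In P cells it rose by a log2 ratio of 1.62 (SE 0.38, adjusted p = 0.0269, edgeR), or 2.39 without replica 1 of uninduced P cells, a call lost without either replica of induced P cells. Ltbp1, with 127 to 259 CPM, and Ltbp3, with 132 to 324 CPM, were not called in any test.

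A second list held 42 further genes of the pathway, of which 30 were tested. Induction called 14 of them in C cells (46.7%, against 20.4% of all genes), 8 higher and 6 lower, and 17 in P cells (56.7%, against 18.0%), 5 higher and 12 lower. P and C cells differed in 9 at day −2 (30.0%, against 6.98% of all genes), all 9 higher in P cells, and in 7 at day 1 (23.3%, against 4.06%), 3 higher and 4 lower. Their median log2 ratios were −0.06, −0.72, 0.38 and −0.02 in these 4 comparisons, against −0.01, 0.02, 0.01 and 0.01 over all genes. At day −2 fewer of them were called without either replica of uninduced C cells, and more, some of them lower, without replica 2 of uninduced P cells. Without either replica of induced P cells fewer were called at day 1 and in the induction of P cells. In each of these fits the calls over all genes tested changed the same way. Among 10 genes known as transcriptional targets of TGF-beta, 3 rose and 4 fell on induction of C cells, while 10.7% and 9.68% of all genes did. In P cells 1 rose and 6 fell, while 7.65% and 10.4% of all genes did. Of the same 10, 4 were called higher in uninduced P cells (4.83% of all genes), and after induction 2 were higher (1.83%) and 3 lower (2.23%). The actin gene Acta2 had 439 and 404 CPM in uninduced C, 2053 and 2599 in uninduced P, 14.9 and 14.5 in induced C and 99.4 and 98.0 in induced P, and Tagln, which encodes the actin-binding protein transgelin, had 18.8 and 15.9 CPM in uninduced C, 156 and 191 in uninduced P, 0.237 and 0.119 in induced C and 2.26 and 3.13 in induced P. Both were highest in uninduced P cells and fell in both inductions, with log2 ratios in C and P cells of −4.84 and −4.56 for Acta2 and of −6.57 and −6.01 for Tagln, where the values in P cells were −4.73 and −6.16 without replica 1. Tagln then had 6 and 3 counts in induced C cells. P cells exceeded C cells by a log2 ratio of 2.46 (SE 0.17, adjusted p = 0.00146, edgeR) for Acta2 and 3.32 (SE 0.24, adjusted p = 0.00162, edgeR) for Tagln at day −2, or 2.63 and 3.47 without replica 1, and at day 1 by 2.75 for Acta2.

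Thbs1, which encodes the TGF-beta activator thrombospondin 1, was among the further genes whose inductions differed. Thbs1 had 884 and 886 CPM in uninduced C, 5483 and 3815 in uninduced P, 299 and 335 in induced C and 294 and 274 in induced P, and its inductions differed by a log2 value of −2.55 (SE 0.29, adjusted p = 0.013, edgeR), or −2.30 without replica 1, a call lost without either replica of uninduced C cells or of induced P cells. Fn1, the gene of fibronectin, had 3729 and 3663 CPM in uninduced C, 3108 and 3208 in uninduced P, 11523 and 11998 in induced C and 5228 and 5215 in induced P. Induction raised Fn1 in C cells by a log2 ratio of 1.67 (SE 0.14, adjusted p = 4.8e-04, edgeR), and after induction P cells lay below C cells, with a log2 ratio of −1.17 (SE 0.14, adjusted p = 0.00923, edgeR), a call lost without either replica of induced P cells. Tgfbi, a matrix protein gene induced by TGF-beta, had 58.0 and 58.3 CPM in uninduced C, 48.7 and 62.3 in uninduced P, 116 and 133 in induced C and 34.6 and 33.7 in induced P, with a ratio of P to C cells after induction of −1.87 (SE 0.17, adjusted p = 0.00407, edgeR).

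Fstl1, which encodes a secreted follistatin-like glycoprotein, had 509 and 494 CPM in uninduced C, 1193 and 1132 in uninduced P, 2917 and 3373 in induced C and 3759 and 3730.0 in induced P. It rose in both inductions, by a log2 ratio of 2.65 (SE 0.16, adjusted p = 1.3e-04, edgeR) in C cells and 1.69 (SE 0.15, adjusted p = 8.1e-04, edgeR) in P cells, the latter 1.72 without replica 1. Postn, which encodes the matrix protein periostin, had 157 and 149 CPM in uninduced C, 111 and 250.4 in uninduced P, 842 and 745 in induced C and 1029 and 959 in induced P. It rose in both inductions, by a log2 ratio of 2.37 (SE 0.36, adjusted p = 0.00425, edgeR) in C cells and 2.46 (SE 0.36, adjusted p = 0.00479, edgeR) in P cells, the latter 1.98 without replica 1.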

How the data were processed

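RNA-seq counts were analysed from 8 libraries of 3T3-L1 cells. The authors removed read artifacts with the FASTX-Toolkit, aligned the Ion Torrent reads to mm9 with TopHat2 2.0.9 and deposited whole-number counts of reads per NCBI gene of the refGene annotation, without normalization. How reads from several genes or places, or from either strand, were counted is not given in the sources used here. Symbols came from RefSeq (GRCm38.p6) and matched 23929 of 24013 genes. All tests used edgeR 4.0.16 (with limma 3.58.1, under R 4.3.3): filterByExpr, TMM, and a quasi-likelihood fit with 1 mean per condition over all libraries, with Benjamini-Hochberg adjustment over all 13339 genes tested and two-sided p-values. SE were taken from the log2 ratio and its F statistic. For the difference between inductions, an interaction term, only the adjusted p counted (under 0.1) and not its size. The members and lists were chosen with earlier results of these data known. Each member called in a test is described with its value in every library, and of the further pathway genes those with the lowest p, 2 per direction and comparison with a mean of at least 50 counts. Some genes that this rule names are not reported here. The fit was also run on simulated data with 200 genes changed 4-fold, whose outcome is not reported here and is not used as support. Alternatives were DESeq2 1.42.0, other scalings, filters and thresholds, separate fits, a replicate block and each library left out. No table with promoter or protein sequences or transcript lengths was used here, so levels were not compared between genes.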

Additional observations from a re-analysis of the deposited data

Results flagged for a closer look

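In 5 genes the response to induction was not alike in C and P cells by the test of the difference itself (edgeR, adjusted p under 0.1), with values given as the log2 ratio in P cells minus that in C cells. The value for Fst was −2.11 (SE 0.28, adjusted p = 0.0212, edgeR), and all P libraries exceeded all C libraries of the same day. That for Grem1 was −1.34 (SE 0.21, adjusted p = 0.0414, edgeR), and Grem1 fell in both kinds of cell. Bmper differed by −1.50 (SE 0.27, adjusted p = 0.0626, edgeR) and Nbl1 by −1.90 (SE 0.38, adjusted p = 0.0845, edgeR), both of them higher in uninduced P than in uninduced C libraries without overlap. Tgfbr2 differed by 0.90 (SE 0.18, adjusted p = 0.09, edgeR) in the other direction, with a lower level in uninduced P than in uninduced C libraries. All 5 calls depended on the processing and on single libraries. Of 16 alternatives, 5 lost the call of Fst and 11 that of Tgfbr2. For Grem1, Bmper and Nbl1 the call was lost in 8 of 16 each. No group held enough samples for a search for outlying samples.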

How the results depend on the processing

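No call of a member changed direction under any alternative. Of the 53 calls, 16 passed under all alternatives run and 37 were lost under at least 1. The count of members called for the difference between the inductions, 5 in the reported fit, was 2 at an adjusted p under 0.05, 10 with DESeq2 and 1 with the replicate block. With only the conditions compared in the fit, the count was 9 for the induction of P cells and 1 for P against C cells at day −2, against 17 for the induction of C cells and 7 at day 1, and the cause was not tested. Without a ratio threshold it was 8 for P against C cells at day 1. With single libraries left out, it ranged from 9 to 17 for the induction of C cells, 9 to 23 for that of P cells, 3 to 20 at day −2, 0 to 7 at day 1 and 0 to 29 for the difference between the inductions, where the causes were not tested. The deviations of same-numbered replicas correlated negatively in 5 of 6 pairs of conditions (−0.355 to 0.209), so the numbers were not taken to pair the samples, and with the block the other counts were 17, 15, 10 and 5. In a block with the numbers of induced P cells crossed, chosen after seeing the data, the difference between the inductions called 1, and with those of all induced cells crossed it called 4. With scaling by library totals, the median over all genes tested became −0.11 and 0.19 (log2) for the inductions of C and P cells, −0.18 at day −2, 0.11 at day 1 and 0.29 for the difference. Depth limits Bmp6, Chrd, Gdf10 and Nog, each with at most 45 counts in a library. It also limits ratios to C cells for 2 called genes. Nbl1 had 35 and 27 counts in uninduced C cells. Smad9 had 34 and 38 counts in uninduced C cells and 26 and 18 in induced C cells.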

Other observations

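The 14 genes that differed over 2-fold between the replicas of uninduced P cells were spread over several roles. Higher in replica 1 were 9, namely Bmp6, Inhba, Inhbb, Acvr2b, Smad6, Smad7, Id1, Id4 and Ltbp4. Higher in replica 2 were 5, namely Tgfbr1, Bmpr1a, Bmpr2, Acvr2a and Id2. Among all genes with counts in both, 11.2% were over 2-fold higher in replica 1 and 17.1% in replica 2. Fst, Bmper, Nbl1, Bambi, Smad9, Id3 and Ltbp2, which were called higher in uninduced P cells, differed less than 2-fold between these replicas. Even so, the call of Id3 was lost without replica 1.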
